A study of Mus musculus with 3 samples.

Results

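The 7 genes described here, *Ptpn11*, *Sos1*, *Hras*, *Nras*, *Braf*, *Map2k1* and *Map2k2*, encode core steps of the RAS-MAPK pathway and are 7 of the 24062 genes counted. They were chosen by their place in the pathway, starting from *Ptpn11*, which was selected on its low *tuft* to wild-type count ratio in these same libraries. The values of *Ptpn11* are therefore a description, and nothing is tested with them. RNA was measured by RNA-Seq in the rostrum (the front of the embryonic head) of E9 embryos with 18 to 22 somites. The *tuft* embryos were homozygous for the *tuft* allele of *Tet1* (*tuft*/*tuft*) and had a neural tube closure defect, and the wild-type embryos were of the same 3H1 Balb background strain, without that allele. RNA of 3 embryos was pooled into 1 library per genotype, so no value has a replicate error and no p-value is given. Although 2 *tuft* samples are on record beside 1 wild-type sample, only 1 set of *tuft* counts was analyzed. The labels do not say whether it came from 1 of the 2 samples or from both.

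Receptor tyrosine kinases that bind a growth factor recruit the phosphatase SHP2, encoded by *Ptpn11*, and the exchange factor SOS1, which loads RAS proteins with GTP. Active RAS (HRAS and NRAS here) recruits RAF kinases such as BRAF, which phosphorylate the kinases MEK1 (*Map2k1*) and MEK2 (*Map2k2*), and these in turn phosphorylate ERK. In the embryonic head the pathway carries FGF signals, and germline mutations that raise its activity cause the RASopathies, a group of developmental disorders with craniofacial features.

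Counts on genes summed to 6433067 in *tuft* and 14251942 in wild type, 2.22 times more in wild type. Levels are given in CPM, the count of a gene per 1000000 counts on genes of its library. The limit that a count of 0 allows, 3 counts, was 0.466 CPM for *tuft* and 0.210 CPM for wild type. Wherever a pair of counts is given for a gene, the *tuft* count comes first unless stated otherwise. Fold changes are *tuft* over wild type after trimmed mean of M-values (TMM) normalization. The range beside a fold change, where given, is a 95% Clopper-Pearson interval that covers counting error only. *Tet1* itself had 32 *tuft* counts against 435 wild-type counts (fold change 0.214, 0.145 to 0.307). Markers of the anterior neuroectoderm were found in both libraries, among them *Six3* with 1361 *tuft* counts against 958. *Hesx1* had no count in *tuft*, however, and *Rax* had 2 against 389. Markers of other tissues differed between the libraries. Of all genes with 10 counts or more, 37.5% were lower by 2-fold or more and 21.3% higher, which is the background for the marker counts that follow. The 9 yolk sac markers summed to 364 CPM in *tuft* on the wild-type scale and 2151 in wild type. By 2-fold or more, 7 of the 9 were lower and 1 was higher, and *Apoa4* and *Apoc2* had no count in *tuft*. The 6 erythroid markers summed to 46694 and 3192 CPM, and of the 5 with at least 10 counts 3 were higher and 1 was lower. *Hba-x* (24265 CPM) and *Hbb-y* (21234 CPM) made up most of the *tuft* sum, whereas the fold change was 1.08 for *Hbb-bh1* and 0.215 for *Alas2*. Of the 5 endothelial markers 4 were lower and 1 was higher, with *Pecam1* at 0 in *tuft*, and their sums were 105 and 242 CPM. The sums were 1351 and 921 CPM for neuroectoderm, 519 and 391 for head mesenchyme and 1014 and 596 for surface ectoderm. The part of these cell types in the values below was not tested. In bulk RNA, fewer cells of a type and less RNA per cell cannot be told apart.

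The 7 genes did not move together. *Ptpn11*, *Hras* and *Map2k2* were lower in *tuft* by 2-fold or more, *Nras* was higher by 2-fold or more, and *Sos1*, *Braf* and *Map2k1* lay between. All 7 genes had at least 720 counts over both libraries. Of the 7015 genes that had 500 counts or more, 25.2% were lower by 2-fold or more and 23.0% were higher. Of all 13979 genes that had 10 counts or more, 37.5% were lower and 21.3% higher. The members' 3 of 7 lower and 1 of 7 higher are set against this background, in which passing the threshold was common. Without *Ptpn11*, 2 of 6 were lower. The median log2 fold change was -0.71 over the 7 genes and -0.13 without *Ptpn11*, against -0.04 over the 7015 genes.

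**Figure D1:**
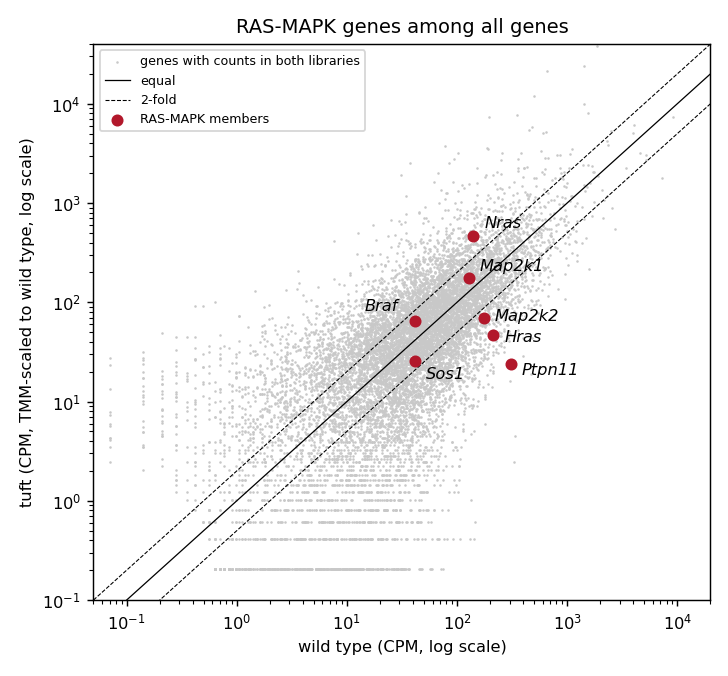
Level of every gene with at least 10 counts over both libraries and a count in each (grey) and of the 7 members (red), with wild-type CPM on the x axis and *tuft* CPM, TMM-scaled to wild type, on the y axis, both on log scales. *Ptpn11*, *Hras* and *Map2k2* lie below the lower dashed 2-fold line, *Nras* lies above the upper one, and *Sos1*, *Braf* and *Map2k1* lie between the lines.

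*Ptpn11* (chromosome 5 of GRCm38, 121130533 to 121191397) encodes SHP2, a phosphatase with SH2 domains that promotes RAS activation downstream of most receptor tyrosine kinases. It had 116 *tuft* counts against 4413 wild-type counts, or 23.7 CPM on the wild-type scale against 310 CPM. It was the member with the most counts in wild type and the one with the fewest in *tuft*. The fold change was 0.0765 (0.0631 to 0.0920), and 250 of the 7015 genes with at least 500 counts (3.56%) had a fold change this low or lower. No annotated gene overlaps it. Its longest coding transcript in GENCODE has 5610 bases, and 20.4% of it, all in the last part between bases 4462 and 5606, is matched at 90% identity or more by 2 further places in the genome. One match has 1173 bases at 90.1% identity and the other 486 bases at 94.9%. Non-unique alignments, which were not counted to any gene, made up 59.2% of all entries for *tuft* and 51.4% for wild type. How many of them fell on *Ptpn11* was not measured.

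*Sos1* (chromosome 17, 80393752 to 80480453) encodes the guanine nucleotide exchange factor that SHP2 and the adaptor GRB2 act with at the membrane. It had 125 *tuft* counts against 595 wild-type counts. The fold change was 0.612 (0.50 to 0.743), lower by more than counting error but short of 2-fold. Scaled by library totals alone, its log2 fold change of -0.71 became -1.10, past 2-fold. *Arhgef33* overlaps the gene, as do 2 pseudogenes, and the strand setting of the counting was not given in the sources used here, so the reads of these genes may not be separable. *Ptpn11* had 7.42 times the counts of *Sos1* in wild type, whereas in *tuft* the counts were nearly level (116 and 125). This ratio within a library does not depend on the scaling of whole libraries, and it was 7.99 times (6.06 to 10.5) larger in wild type. It carries the selection of *Ptpn11* on its low *tuft* value in these libraries and is a description only.

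The 2 RAS genes went in opposite directions. *Hras* (chromosome 7, 141189934 to 141194019) and *Nras* (chromosome 3, 103058285 to 103067914) encode closely related small GTPases that differ mainly in the membrane-anchoring tail. *Hras* had 230 *tuft* counts against 3054 wild-type counts (fold change 0.219, 0.191 to 0.251). *Nras* had 2303 counts in *tuft*, more than the 2007 in the deeper wild-type library, and a fold change of 3.34 (3.15 to 3.55). Of the 7015 genes with at least 500 counts, 691 were as low as *Hras* or lower and 744 as high as *Nras* or higher, so that both lay within the range of the bulk of genes.

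The *Hras* to *Nras* count ratio was 1.52 in wild type and 0.0999 in *tuft*. *Hras* accounted for 60.3% (59.0 to 61.7) of the counts of the pair in wild type and 9.08% (7.99 to 10.3) in *tuft*. The ratio of ratios was 15.2 (13.1 to 17.7), which no scaling of whole libraries can change. Together the pair had 5061 counts in wild type and 2533 in *tuft* (fold change 1.46, 1.39 to 1.53), smaller in size than that of either gene alone. No further place in the genome matched the longest *Hras* transcript over 200 bases or more at 90% identity. *Nras* had 3 such matches of 200 to 204 bases, over 4.69% of its transcript.

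**Figure D2:**
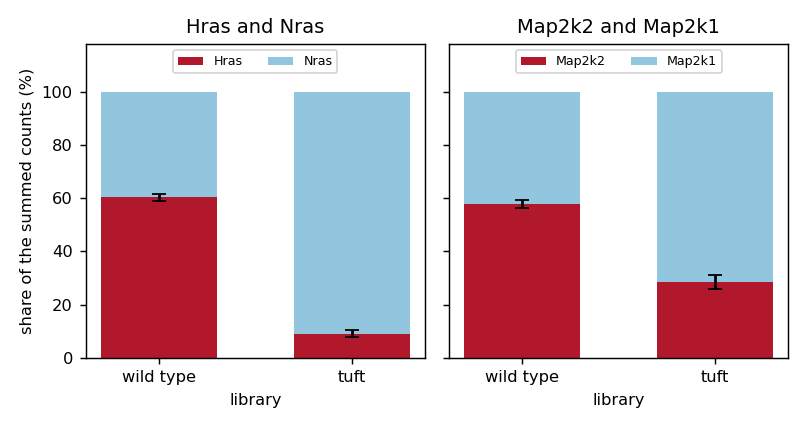
Share of the summed counts of 2 related genes held by each, in percent, in the wild-type and *tuft* libraries, for *Hras* with *Nras* (left) and *Map2k2* with *Map2k1* (right). Error bars are 95% Clopper-Pearson intervals for counting error. *Hras* falls from 60.3% of its pair in wild type to 9.08% in *tuft*, and *Map2k2* from 57.8% to 28.5%.

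*Braf* (chromosome 6, 39603231 to 39725658) encodes the RAF kinase that RAS recruits to phosphorylate MEK. It had 314 *tuft* counts against 598 wild-type counts (fold change 1.53, 1.33 to 1.76), and its log2 fold change of 0.61 became 0.22 with library totals alone. *Braf* overlaps the long non-coding RNA *Gm34389* and the pseudogene *Fth-ps2*. *Braf* and *Sos1* were the members with the lowest wild-type counts, 598 and 595, and their values in *tuft* differed by more than counting error, 314 against 125.

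The MEK genes showed the same kind of split as the RAS genes, at a smaller size. *Map2k1* (chromosome 9, 64185769 to 64253605), which encodes MEK1, had 860 *tuft* counts against 1832 wild-type counts (fold change 1.37, 1.26 to 1.48). Scaled by library totals alone, its log2 fold change went from 0.45 to 0.06. It overlaps the coding gene *Uchl4*. *Map2k2* (chromosome 10, 81105913 to 81124697), which encodes MEK2, had 343 and 2510 counts (fold change 0.398, 0.354 to 0.446). *Map2k2* held 57.8% (56.3 to 59.3) of the counts of the pair in wild type and 28.5% (26.0 to 31.2) in *tuft*, a ratio of ratios of 3.44 (2.98 to 3.96). The sum of the pair had a fold change of 0.807 (0.756 to 0.860).

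**Figure D3:**
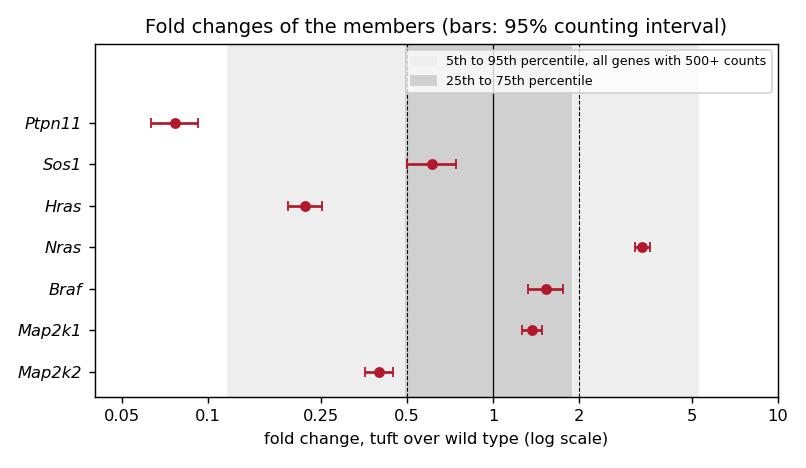
Fold change of each member, *tuft* over wild type after TMM normalization, on a log scale, with 95% counting intervals. Dashed lines mark 2-fold in each direction, and the grey bands hold the middle of the 7015 genes with at least 500 counts. *Ptpn11* (0.0765), which was selected on its low ratio in these same libraries, lies outside the 5th to 95th percentile of those genes. That range runs from 0.118 to 5.23 and holds the other members.

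The order of the members by level differed between the libraries. Per kilobase of the longest coding transcript, the wild-type order was *Hras* (75.8 CPM per kilobase), *Map2k2* (73.2), *Ptpn11* (55.2), *Map2k1* (52.8), *Nras* (31.9), *Sos1* (4.68) and *Braf* (4.31). In *tuft*, on the wild-type scale, *Nras* stood first (107 CPM per kilobase), then *Map2k1* (72.1), *Map2k2* (29.1), *Hras* (16.6), *Braf* (6.59), *Ptpn11* (4.22) and *Sos1* (2.86). On this scale *Sos1* and *Braf* were low in both libraries, with long transcripts of 8919 and 9728 bases. The orders between genes depend on the transcript taken for the length. With the shortest annotated coding transcript instead, *Braf* (97 bases) would have 433 CPM per kilobase in wild type, *Map2k2* (482 bases) 365, *Hras* (1199 bases) 179 and *Nras* (1749 bases) 80.5. The values of *Ptpn11*, *Sos1* and *Map2k1* would hardly change, so that these genes would all stand below *Nras*. With no replicates, neighbours in these orders cannot be separated beyond counting error.

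Transcript GC content and length were compared with the fold changes across the 6598 genes with at least 500 counts and a known transcript, as a description, since all these genes share the same pair of libraries. Spearman's rho was -0.07 for GC content and -0.05 for length. By GC content the members ranged from 42.3% (*Nras*) to 60.4% (*Map2k2*). The median log2 fold change was 0.36 among genes within 2.5 percentage points of *Nras* in GC content and -0.19 among those near *Ptpn11* (51.9%). *Sos1* and *Braf* have nearly the same GC content as *Nras*, 43.1% and 42.6%, and log2 fold changes of -0.71 and 0.61 against 1.74. The part of GC content in the members' values was not tested.

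The CG content of the members' promoters is given as a description of their sequence. Neither methylation nor TET1 binding was measured in these files, and no relation of CG content to the fold changes was tested. The RefSeq table for GRCm38.p6 held a promoter for all 7 genes. In the 250 bases before the start annotated for the promoter, on the strand of the gene, the members had from 14 CG dinucleotides (*Nras*) to 31 (*Ptpn11*). The median of all 32851 promoters in the table was 6. That start can lie inside the gene positions given above. Most of the *Braf* window (39725464 to 39725713) does, and the *Hras* and *Map2k2* windows overlap their genes by a few bases. At least 31 were present in 5.19% of all promoters and at least 14 in 29.4%. The other members had 22 (*Sos1*), 23 (*Map2k2*) or 24 (*Hras*, *Braf* and *Map2k1*). *Hras* and *Map2k1*, both with 24, had fold changes of 0.219 and 1.37. The sequences of *Ptpn11* (chr5:121191398-121191647, minus strand) and *Nras* (chr3:103058035-103058284, plus strand) are shown because they had the most and the fewest CG dinucleotides of the 7, 5′ to 3′ and ending at the base before the start, with each CG in capitals. A CG reads as CG on both strands.
Ptpn11: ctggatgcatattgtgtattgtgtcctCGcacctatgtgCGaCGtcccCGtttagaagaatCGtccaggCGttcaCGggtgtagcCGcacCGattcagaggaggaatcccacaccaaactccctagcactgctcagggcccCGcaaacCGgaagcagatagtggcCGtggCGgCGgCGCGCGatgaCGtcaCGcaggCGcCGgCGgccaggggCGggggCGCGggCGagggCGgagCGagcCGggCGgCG
Nras: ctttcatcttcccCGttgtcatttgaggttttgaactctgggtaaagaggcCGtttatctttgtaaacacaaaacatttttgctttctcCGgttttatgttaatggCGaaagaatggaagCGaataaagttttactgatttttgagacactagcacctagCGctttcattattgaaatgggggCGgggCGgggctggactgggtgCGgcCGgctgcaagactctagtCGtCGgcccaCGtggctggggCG

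Genes in and around the pathway were described with 9 lists, 138 genes in all, of which 132 had at least 10 counts over both libraries. The lists of non-receptor protein tyrosine phosphatases and of p38, JNK and ERK5 cascade kinases hold related families rather than steps of the pathway. The pooled values here include them. In *tuft*, 52 of the 132 (39.4%) were lower by 2-fold or more and 22 (16.7%) were higher, against 37.5% and 21.3% of all genes. With library totals alone in place of TMM, 57 were lower and 14 higher. The *tuft* library lacked any count for 18 of the 132, and for 2609 of all 13979 genes with at least 10 counts (18.7%). Among the 88 with at least 500 counts, 25 (28.4%) were lower and 14 (15.9%) higher, against 25.2% and 23.0% of all such genes, and the median log2 fold change was -0.05. For medians and thresholds, counts under 3 were set to 3.

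Of the 16 adaptors and exchange factors that link receptors to RAS with at least 10 counts (of 18 listed), 8 were lower (50%, against 37.5% of all genes) and 1 was higher (6.25%, against 21.3%), with a median log2 fold change of -1.02 against -0.45 over all genes. In the *tuft* library 5 of the 16 had no count, as did 18.7% of all genes with at least 10 counts. Among the 10 with at least 500 counts, 4 were lower and 1 was higher, with a median of -0.61, where 25.2% and 23.0% of all such genes were called. *Frs2*, the docking protein that joins FGF receptors to SHP2 and GRB2, had no *tuft* count against 525, at least 60.1-fold lower by the floor of 3 counts in a library. *Rasgrp2*, a calcium-regulated exchange factor for RAP1, had 0 against 172, a fold change of at most 0.0631. At the other end, the ubiquitin ligase gene *Cblb* had 665 and 1014 counts (1.91-fold, 1.73 to 2.11). The insulin receptor substrate gene *Irs1* had 540 and 738 (2.13-fold, 1.90 to 2.38), an interval that reaches below 2-fold. Among 9 other GTPases of the RAS subfamily, 1 was lower (11.1%) and 2 higher (22.2%), and the median was -0.05. None of the 5 with at least 500 counts passed 2-fold. *Mras*, whose product acts with SHOC2 on RAF, had 271 *tuft* counts against 194 wild-type counts, 4.07-fold higher (3.37 to 4.92), and *Rras* had 108 and 137 (2.30-fold, 1.77 to 2.98). *Rit1* had 8 counts against 446 (fold change 0.0522, 0.0224 to 0.104), and *Rap1b* 305 against 1142, a fold change of 0.778.

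Of 15 genes that shut RAS off, 7 were lower (46.7%, against 37.5% of all genes) and 2 higher (13.3%, against 21.3%). The median was -0.25, against -0.45 over all genes. Among the 12 with at least 500 counts, 5 were lower (41.7%, against 25.2% of all such genes) and 2 higher (16.7%, against 23.0%). Both of the higher genes encode SPRED proteins, which bring the RAS GTPase-activating protein neurofibromin to the membrane. *Spred1* had 997 *tuft* counts against 808 wild-type counts, 3.59-fold higher (3.27 to 3.95), and *Spred3* had 555 and 516, 3.13-fold higher (2.77 to 3.54). Among the lower genes, the feedback inhibitor *Spry4* had 7 counts against 264 (fold change 0.0772, 0.0307 to 0.161).

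Of 19 further kinases and scaffolds of the RAF, MEK and ERK cascade, 6 were lower (31.6%, against 37.5% of all genes) and 3 higher (15.8%, against 21.3%). The median was -0.30, against -0.45 over all genes. Among the 16 with at least 500 counts, 4 were lower (25%, against 25.2% of all such genes) and 3 higher (18.8%, against 23.0%). *Lamtor2*, which encodes part of a late-endosomal scaffold for MEK1, had no *tuft* count against 720, a fold change of at most 0.0150. *Shoc2* had 16 counts against 640 (fold change 0.0728, 0.0414 to 0.119). *Shoc2* encodes the scaffold of a phosphatase that frees RAF from its inhibitory phosphate. *Ppp1cb*, a catalytic subunit of that phosphatase, was in contrast 3.53-fold higher (3.29 to 3.79), with 1739 against 1435 counts. *Ywhaz*, whose product binds phosphorylated RAF, had 3522 and 3584 counts (2.86-fold). Of these 19 genes, 10 lay within 2-fold.

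**Figure D4:**
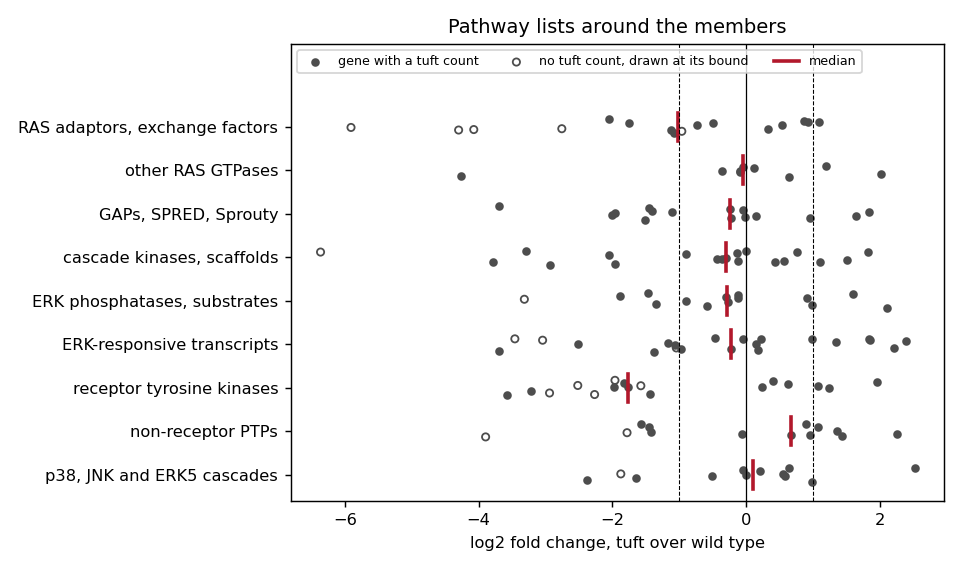
Log2 fold change, *tuft* over wild type, of each gene (points) in 9 pathway lists, limited to genes counted 10 times or more over both libraries, with the list median (red line). Open points had no count in *tuft* and are drawn at the bound set by 3 counts, and dashed lines mark 2-fold. The medians run from -1.76 for receptor tyrosine kinases to 0.68 for non-receptor protein tyrosine phosphatases (PTPs).

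Downstream of ERK, 4 of 14 phosphatases and substrate kinases were lower (28.6%, against 37.5% of all genes) and 2 higher (14.3%, against 21.3%). The median was -0.28, against -0.45 over all genes. Among the 9 with at least 500 counts, 2 were lower (22.2%, against 25.2% of all such genes) and 2 higher (22.2%, against 23.0%). *Mknk1*, a kinase of the translation factor eIF4E, was 4.32-fold higher (482 and 325 counts), and *Rps6ka6*, a ribosomal S6 kinase, 3.05-fold higher (750 and 717). *Dusp9*, an ERK phosphatase, had 135 counts against 1454 (fold change 0.270, 0.225 to 0.323), and *Rps6ka4* had 0 against 87, a fold change of at most 0.126. Of 21 transcripts (22 listed) known to respond to ERK or to encode its nuclear targets, 8 were lower (38.1%, against 37.5% of all genes) and 5 higher (23.8%, against 21.3%), with a median of -0.22. Among the 11 with at least 500 counts 1 was lower (9.09%, against 25.2% of all such genes) and 2 were higher (18.2%, against 23.0%). Their median was 0.14, but the median of all genes also rose at that minimum, from -0.45 to -0.04. Over all 21, with the whole counting interval past 2-fold, 4 were lower and 5 higher. The share of all genes by that rule is not given here. The lower genes included *Spry4* and the immediate-early gene *Junb*, with no *tuft* count against 96, a fold change of at most 0.114. The higher ones included *Elk1*, an ETS-domain factor that ERK phosphorylates, with 1086 *tuft* counts against 684 (4.62-fold), and *Etv1* with 56 and 31 counts (5.26-fold, 3.33 to 8.44).

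Upstream, 11 of 17 receptor tyrosine kinases were lower (64.7%, against 37.5% of all genes) and 3 higher (17.6%, against 21.3%). The median was -1.76, against -0.45 over all genes. *Fgfr3*, an FGF receptor, had 18 counts against 487 (fold change 0.108, 0.0632 to 0.172), and *Met*, the hepatocyte growth factor receptor, had 3 against 104 (fold change 0.0840, 0.0170 to 0.252). *Ntrk3* was 3.89-fold higher (143 and 107 counts), and the insulin receptor gene *Insr* 2.37-fold higher (286 and 352). Genes with few counts were frequent in this list. The *tuft* library lacked any count for *Fgfr4*, *Egfr*, *Erbb4*, *Ret* and *Ntrk2*, which are named after their values were seen. Of all genes with at least 10 counts, 18.7% had no *tuft* count. Among the 10 receptors with at least 500 counts 5 were lower and 2 higher, against 25.2% and 23.0% of all such genes. Their median was -0.60, against -0.04 over all such genes.

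Related families were compared with the members. Among 13 (of 16 listed) other non-receptor protein tyrosine phosphatases, the family of *Ptpn11*, 5 were lower (38.5%, against 37.5% of all genes) and 4 were higher (30.8%, against 21.3%). The median was 0.68, against -0.45 over all genes. Among the 8 with at least 500 counts, 2 were lower (25%, against 25.2% of all such genes) and 2 higher (25%, against 23.0%). *Ptpn6*, which encodes the SHP2 relative SHP1 of blood cells, had no *tuft* count against 130, a fold change of at most 0.0838. *Ptpn23* had 189 against 1632 counts (fold change 0.337, 0.289 to 0.392). *Ptpn3* was 4.78-fold higher (110 and 67 counts) and *Ptpn9* 2.70-fold higher (818 and 883). Among 12 kinases of the parallel p38, JNK and ERK5 cascades, which include relatives of the MEK genes, 3 were lower (25%, against 37.5% of all genes) and 1 was higher (8.33%, against 21.3%), with a median of 0.10. Among the 10 with at least 500 counts, 2 were lower (20%, against 25.2% of all such genes) and 1 was higher (10%, against 23.0%). *Map2k6*, an activator of p38, had 1276 *tuft* counts against 646 wild-type counts, 5.75-fold higher (5.23 to 6.33). *Map2k5*, the MEK gene of the ERK5 cascade, had 41 against 623 (fold change 0.192, 0.136 to 0.263), and *Map2k7*, an activator of JNK, had 139 against 1264 (fold change 0.320, 0.267 to 0.382). *Mapk7*, which encodes ERK5, had 775 and 1141 counts, a fold change of 1.98.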

How the data were processed

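RNA of the rostrum was sequenced as 1 library per genotype, pooled from 3 embryos. The authors deposited raw counts per gene symbol, made from single-end Ion Proton reads that were trimmed with PRINSEQ, aligned to mm10 with TopHat 2.0.14 (Bowtie2 2.2.5) and counted with htseq-count. The HTSeq version, overlap mode and strand setting are not given in the sources used here. The 5 summary lines that name no gene, 72.6% (*tuft*) and 62.7% (wild type) of all entries, were left out of library totals. The study called genes with NOISeq-sim, which was not rerun here.

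TMM factors came from edgeR 4.0.16 in R 4.3.3 (0.761 for *tuft* relative to wild type), and folds and intervals from Python 3.11.15 with scipy 1.17.1. Alternative size factors came from DESeq2 1.42.0. With 1 library per genotype no test was run. A gene was called lower or higher at 2-fold or more, with at least 10 counts over both libraries. Folds and intervals were tested on simulated data. *Tuft* values in CPM were scaled to the wild-type library. Transcript lengths came from GENCODE vM1, genomic matches from BLAST+ 2.17.0 against NCBIM37 (at least 200 bases and 90% identity), and gene positions and promoters from RefSeq for GRCm38.p6, which has the coordinates of mm10.

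Besides the members and *Tet1*, in each pathway list the 2 highest and the 2 lowest fold changes among genes with at least 50 counts over both libraries were named, except for 1 gene that is not reported here. The members, lists and rules were chosen with earlier results of these data known. The alternatives were 4 other scalings, other fold thresholds, the whole interval past the threshold and other count minima. The minimum of 500 counts and the use of 0.5 for counts of 0 were added after seeing the data.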

Additional observations from a re-analysis of the deposited data

How the results depend on the processing

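With 1 library per genotype no library could be left out. The 4 other scalings (library totals alone, DESeq2's size factors, the upper quartile and centring on genes that had 100 or more counts in each library) changed the direction of none of the 7 members (28 values, 14 of them outside the counting interval of the TMM value). Library totals alone lowered every log2 fold change by 0.39, so that *Sos1* (-1.10) passed the 2-fold threshold, as it did with that centring (-1.05), and the members lower were 4 instead of 3, while *Map2k1* came to 0.06. With library totals alone, 34.2% of the genes with at least 500 counts were lower and 15.7% higher. The members higher in *tuft* were 2 at a threshold of 1.5-fold and 0 at 4-fold, where 2 members (*Ptpn11* and *Hras*) were lower. The pathway list genes higher were 14 with library totals alone and 36 at 1.5-fold. At 4-fold, 24 were lower and 6 higher, and with a minimum of 500 counts, 25 and 14. The shares of all genes past 1.5-fold and 4-fold are not given here. The counts of members and list genes at those thresholds therefore have no background beside them. Intervals cover counting error only, and without a second library the spread between embryos is not known.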
